A study of Homo sapiens with 4 samples.

Results

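The m6A map of control A549 cells held 31057 distinct peaks, out of 58401 in the deposited lists of control and knockdown cells together. Its members were all distinct peaks called in the IP library of shNC cells against the input library of the same cells, after 34 repeated rows were dropped. A549 is a human lung adenocarcinoma cell line, and shNC cells carried the pLKO.1 vector as the control for a knockdown of YTHDF2, a protein that binds m6A. Poly(A) RNA was fragmented and precipitated with an antibody against m6A (the IP library), or sequenced without precipitation (the input library). There was 1 IP and 1 input library, so peaks and levels have no replicate check, and the 95% Wilson intervals on shares cover counting only. The peaks carried 12025 gene IDs, and 99.1% of the peaks could be joined by gene ID to the FPKM table of the input, in which FPKM is the number of fragments scaled to gene length and library size. The number of reads behind a peak and behind an FPKM value is unknown.

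N6-methyladenosine (m6A) is the most frequent internal modification of mRNA in mammals. It is written in the nucleus by METTL3 and METTL14 with WTAP, VIRMA, ZC3H13 and RBM15, mostly at the A of the sequence GGAC and related words, and it is removed by FTO and ALKBH5. Readers of the YTH family bind methylated RNA, and YTHDF2 carries it to decay, so the set of methylated mRNAs sets which transcripts these readers can act on. In other human cells the mark is known to gather near stop codons, in long internal exons and in 3′ UTRs.

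The input library had keratin markers of an epithelial line, and 9 of 14 epithelial and lung markers had an FPKM of at least 1. The keratins KRT7, KRT8 and KRT18 had FPKM values of 648.7, 522.9 and 387.6, and the forkhead factor FOXA2 had 19.4, whereas the surfactant gene SFTPC, a marker of alveolar type II cells, was at 0.0303 and SFTPD was listed at 0. Of 9 markers of other cell types, CD68 at 12.2 was the 1 gene at FPKM 1 or more, and the leukocyte gene PTPRC, the endothelial gene PECAM1 and the fibroblast gene COL1A2 were at 0.0999, 0.0869 and 0.395.

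A few peaks show what a member of the map is. The 10 peaks with the highest fold enrichment (IP over input) at a false discovery rate (FDR) of at most 0.001 in protein-coding genes with FPKM of at least 1 ran from FBXW4 at 151-fold down to AEBP2 at 74.8-fold. The deposited annotation placed 8 of them in 5′ UTRs, and 6 of the 10 had at least 99% of their bases in exons of the labelled gene. The word GGACT was held by 3 of them, a count not set beside sequence of the same length outside peaks. Below, 25 nt of GRCh38 around the GGACT or GGAC nearest to the middle of the peak are given for 4 of them, 5′ to 3′ on the strand of the gene, with that word in capitals. FBXW4 and DOHH lie on the minus strand, PUS1 and AEBP2 on the plus strand. The word lay 55 nt from the middle in FBXW4, 1 in PUS1, -90 in DOHH and 156 in AEBP2, with upstream negative.
FBXW4: aagagcacagGGACgagggggtcag
PUS1: ttcggacggtGGACcctgcgcctgg
DOHH: gcttggggtgGGACTctgcgggagg
AEBP2: gagggctacgGGACTgggggaggcg
FBXW4 encodes a substrate receptor of an SCF ubiquitin ligase, and its peak spanned 2 exonic blocks at chr10:101676700-101695115. PUS1, a pseudouridine synthase, had an 88.7-fold peak at chr12:131929230-131931683. DOHH, which completes hypusine on the translation factor eIF5A, had an 87.0-fold peak at chr19:3490822-3491479, in its 3′ UTR. AEBP2, a Polycomb cofactor, had its peak at chr12:19439681-19462539.

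A second set shows peaks at the place where m6A is best known. It holds the peaks with the highest fold enrichment among those whose midpoint lay within 100 nt of a stop codon, at an FDR of at most 0.001, wholly in exons of their gene and sharing no base with another peak. Of the first 10, 6 held GGACT, a count that was likewise not set beside sequence of the same length. Capitals mark GGACT or GGAC as before, and all 5 genes lie on the plus strand.
PKP3: atcggaaggaGGACTtcctgggccc
GABARAPL1: gggagcacctGGACTtgggggtagg
CCDC85B: ccgctggcatGGACTaagaaatcct
BAX: cagctgccttGGACTgtgtttttcc
TEAD4: caggaaacggGGACgtggggagggg
PKP3, a plakophilin of desmosomes, had a 43.5-fold peak at chr11:404252-404908, and the GGACT lay 27 nt upstream of its middle (-27 nt). TEAD4, a DNA-binding partner of YAP, had a 32.2-fold peak over 3 exonic blocks and no GGACT in it. GABARAPL1, an autophagy protein of the ATG8 family, had a 26.7-fold peak at chr12:10220803-10222027 with GGACT at -6 nt from its middle. BAX, a proapoptotic protein, had a 20.6-fold peak at chr19:48961471-48961798 with GGACT 21 nt downstream of the middle. CCDC85B, at 20.8-fold, held 3 copies of GGACT.

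Most peaks were weak. The median fold enrichment was 2.17, with 10% of the peaks at or under 1.39 and 10% at or over 6.29. The largest deposited p-value was 0.049, and 17510 peaks (56.4%) had an FDR of at most 0.05 and 9884 (31.8%) an FDR of at most 0.001. The peaks covered a median of 270 exonic nt, and 66.1% lay in 1 exonic block. High fold values were not evenly spread. Of the 4222 peaks at 5-fold or more, 68.8% had 1 of 8 values between 5.34 and 10.7 that stood 0.76 to 0.78 apart, such as 6.87 in 626 peaks and 6.1 in 593. Of the peaks at these 8 values 8.22% reached an FDR of 0.001, at a median FPKM of 2.04, against 57.2% of the other peaks at 5-fold or more, at a median FPKM of 5.21. Only the 8 most frequent values were counted, and higher folds repeated too, such as 20.6 in BAX, ZNF784 and C16orf72. The folds of the mRNA peaks shown above lie over these 8 values. Whether those folds belong to the same series of steps was not tested. Some top folds given below equal 1 of the 8 values, and the FDR of those peaks is not given. Among them are 9.92 in VIRMA and SOCS7, 6.87 in OIP5-AS1, 6.1 in METTL14 and PCDH9, and 5.34 in ALKBH5.

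The gene ID of a peak did not always name the gene whose exons held it. Of the 30972 peaks whose gene is in GENCODE release 44, 88.1% had at least 99% of their bases in exons of that gene and 1493 (4.82%) had no base there, and 1418 of the latter lay wholly in exons of another gene. Peaks of neighbouring and overlapping genes also repeated each other. There were 4426 peaks (14.3%) that shared a base with another peak, 407 of them with a peak of a gene on the other strand, and joining such peaks left 28622 regions. Both facts touch single genes and are given beside them.

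Protein-coding genes carried nearly the whole map. They held 28866 peaks, 92.9% of all, against 1164 (3.75%) in lncRNA genes and 487 (1.57%) in pseudogenes. Of the 11807 genes of any class with FPKM of at least 1, 9741 (82.5%) had a peak. The share was 88.7% (88.1 to 89.3) of the 10417 protein-coding genes, 44.5% (40.6 to 48.4) of 616 lncRNA genes, 34.4% (30.4 to 38.7) of 497 pseudogenes and 13.5% (9.23 to 19.3) of 178 small RNA genes. With a peak at an FDR of at most 0.001 it was 51.6% of the protein-coding genes and 15.7% of the lncRNA genes.

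The gap between mRNA and lncRNA was present at like expression. At FPKM 1 to 2 a peak was found in 73.0% of protein-coding genes and 38.0% of lncRNA genes, and at FPKM 10 or more in 94.9% of 3448 and 51.1% of 47. The lncRNA transcripts were also shorter, with a median spliced length of 1185 nt against 3259 nt. When each peak was given to every gene whose exons held it, on either strand, 91.2% of the protein-coding genes and 63.0% of the lncRNA genes had a peak, so the gap was smaller by that count, 28.2 points against 44.2. Many lncRNA genes overlap a coding gene, and which of them such a peak comes from was not tested.

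The known lncRNAs of a chosen list were mostly in the map: 20 of the 22 with FPKM of at least 1 had a peak, 18 at an FDR of at most 0.001. MALAT1, a nuclear speckle RNA with FPKM 22.2, had 4 peaks of up to 3.99-fold. NEAT1, the scaffold of paraspeckles with FPKM 4.89, had 6 peaks that joined into 3 regions, the strongest of them 143-fold over 2967 nt at chr11:65423577-65426543, which was also the longest peak of the list. NORAD, a cytoplasmic RNA that binds Pumilio proteins, had 4 peaks of up to 2.41-fold at an FPKM of 45.9. GAS5 had 3 peaks of up to 3.23-fold, and OIP5-AS1, at an FPKM of 5.2, had 7 of up to 6.87-fold. SNHG3 had none under its own ID, but 3 peaks labelled RCC1, with which it shares a locus, lay wholly in its exons. SNHG12 was the other without a peak of its own, and its exons held 1 peak labelled SNORD99. The strongest peak of MALAT1 at an FDR of at most 0.001 held no GGACT in 211 nt, and that of NEAT1 held 1 copy in 2967 nt. These counts were not set beside sequence of the same length outside peaks. These peaks are shown here with that of NORAD on GRCh38, and were chosen after their values were seen. Capitals mark the GGACT in NEAT1, which lay at -1414 nt from the middle of the peak and so far from it. In MALAT1 and NORAD, without GGACT, they mark another word of the m6A consensus, 9 and 40 nt from the middle. NORAD lies on the minus strand.
NEAT1: tgctccttttGGACTtttctctagg
MALAT1: tgtttattttAAACTtatctgtttg
NORAD: agaatatgtcAAACTataaactgct

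Small RNA genes rarely carried a peak. There was a peak in 12 of 64 snoRNA genes (18.8%), 4 of 40 miRNA genes (10.0%) and 0 of 16 snRNA genes, where the upper Wilson limit was 19.4%. A snoRNA lies in an intron or exon of a host gene: a peak labelled SNORD32A lay wholly in exons of RPL13A. By exon overlap 3.37% of small RNA genes held a whole peak, which is limited by their median length of 98.5 nt. Among pseudogenes the share was 29.1% of 251 processed pseudogenes and 47.7% of 130 transcribed unprocessed ones. Reads of processed pseudogenes can come from their parent genes, so their values are uncertain.

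The share of genes in the map rose with expression. Among protein-coding genes the share with a peak was 3.12% of 704 genes listed at FPKM 0, 5.92% under 0.1, 37.1% at 0.1 to 1, 73.0% at 1 to 2, 86.0% at 2 to 5 and 93.1% at 5 to 10. From there it stayed between 94.3% and 95.9% up to FPKM 500, and was 85.3% (69.9 to 93.6) of the 34 genes above. The share with a peak at an FDR of at most 0.001 rose later and over a wider range, from 12.2% at FPKM 1 to 2 to 57.4% at 5 to 10 and 92.8% at 50 to 100. The size of the enrichment ran the other way. The median fold of a peak was 2.86 at FPKM 1 to 2, 2.02 at 5 to 10 and 1.78 at 20 to 50, and 32.3% of peaks at FPKM 1 to 2 reached 4-fold against 10.5% at 20 to 50. Counting peaks of at least 2-fold only, the share at FPKM 100 to 500 exceeded that at 1 to 2 by 1.4 points (-5.17 to 7.47), against 22.0 (17.8 to 25.1) for all peaks, and the interval of the first holds 0. Peaks need reads to be called, and the part of read depth in the rise of the share was not tested.

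**Figure D1:**
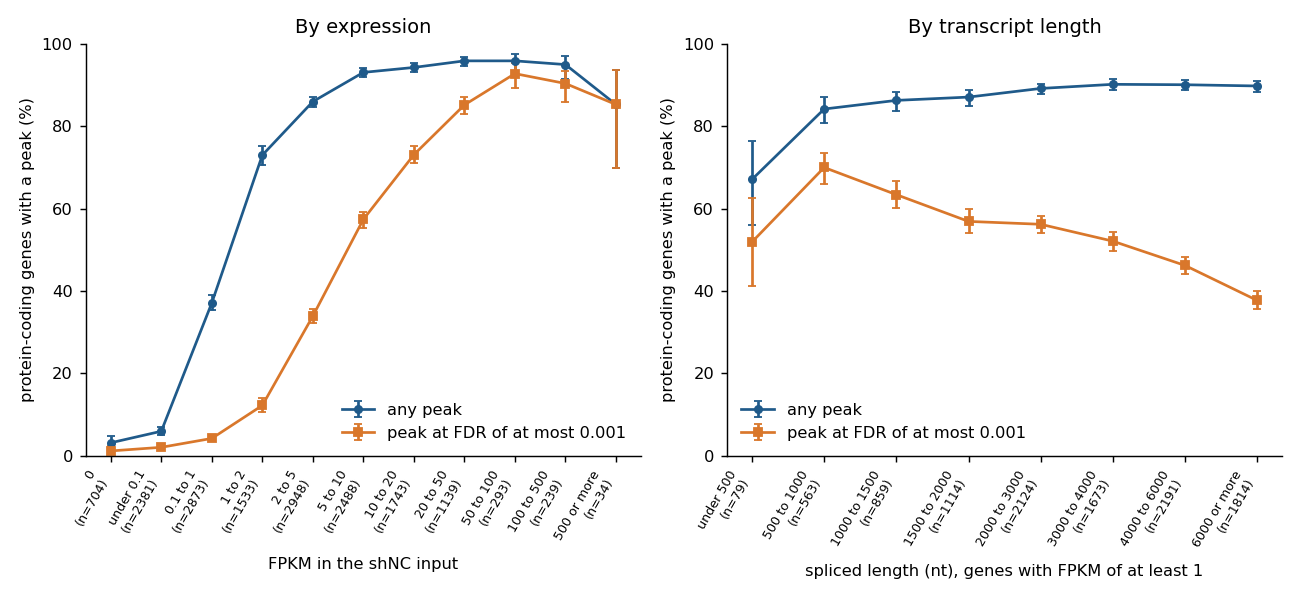
Share of protein-coding genes with a peak (percent, y axis) by FPKM in the shNC input (left) and, for genes with FPKM of at least 1, by spliced length in nt (right); circles are any peak, squares a peak at an FDR of at most 0.001, and bars are 95% Wilson intervals. The share rose from 3.12% at FPKM 0 to 95.9% at 20 to 50, and with length the circles rose while the squares fell from 500 nt on.

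Peaks labelled with genes at or near FPKM 0 lay less often in the exons of those genes. Of the 3085 protein-coding genes with FPKM under 0.1, 163 had a peak, and 88 of their 300 peaks (29.3%) had no base in exons of the labelled gene. For genes listed at FPKM 0, 13 of 39 peaks lay wholly in exons of the labelled gene. In the class at FPKM 2 to 5, by contrast, 92.6% of the peaks did.

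With transcript length the share of genes with any peak rose and the share with a peak at an FDR of at most 0.001 fell. Among protein-coding genes with FPKM of at least 1, a peak was found in 67.1% (56.1 to 76.4) of genes with a spliced length under 500 nt, 84.2% at 500 to 1000 nt, 89.2% at 2000 to 3000 nt and 89.8% at 6000 nt or more. At an FDR of at most 0.001 the share fell from 70.0% at 500 to 1000 nt to 37.7% at 6000 nt or more. Short transcripts were also the more abundant, with a median FPKM of 14.1 at 500 to 1000 nt and 4.16 at 6000 nt or more. Within FPKM 10 to 20 the strict share was 73.5% under 1000 nt and 70.9% at 4000 nt or more, and from FPKM 20 it was 87.2% and 86.5%, so at these levels the fall with length was nearly absent. It was 14.1% and 11.8% at FPKM 1 to 2, 34.4% and 28.7% at 2 to 5, and 75.8% and 51.3% at 5 to 10, the widest gap of the 5 levels. Genes with a single exon had a peak in 75.5% (69.3 to 80.7) of 216 cases by label and in 84.7% by exon overlap.

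Peaks per gene were few and rose little with length. Of the protein-coding genes with FPKM of at least 1, 1174 had no peak, 2087 had 1, 2480 had 2 and 2025 had 3. The mean over genes with a peak was 2.88 and the median 3, 50.6% had 3 or more and 15.7% had 5 or more. The share with 3 or more was 27.9% with peaks at an FDR of at most 0.05, 15.5% at 0.001 and 21.3% with peaks of at least 2-fold. Across these 10417 genes, which are not independent replicates, the Spearman correlation of the number of peaks was 0.18 with spliced length and 0.25 with FPKM. Peaks per kilobase thus fell steeply, from 2.42 in transcripts of 500 to 1000 nt to 0.349 in those of 6000 nt or more.

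Part of the highest counts came from peaks that share bases. KLC1, a kinesin light chain with 17 peaks, had 10 regions after joining, and 6 of its peaks had no base in its exons. C16orf72 had 17 peaks and 12 regions, and RABGEF1, an exchange factor of Rab5, had 15 peaks that joined into 5 regions. PSMC1, a proteasomal ATPase, had 14 peaks and 8 regions. FADS2, a fatty acid desaturase, had 12 peaks of up to 40.4-fold, of which 7 had no base in its exons. PCDH9, a protocadherin, had 14 peaks that shared no base with one another, all wholly in its exons, with folds of 1.19 to 6.1 at an FPKM of 5.34. CFLAR, an inhibitor of caspase 8, had 12 peaks in 11 regions, and CAND1, a regulator of cullin ligases chosen after its values were seen, 10 in 10. After joining, 15 genes had 10 or more peaks, against 52 before.

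**Figure D2:**
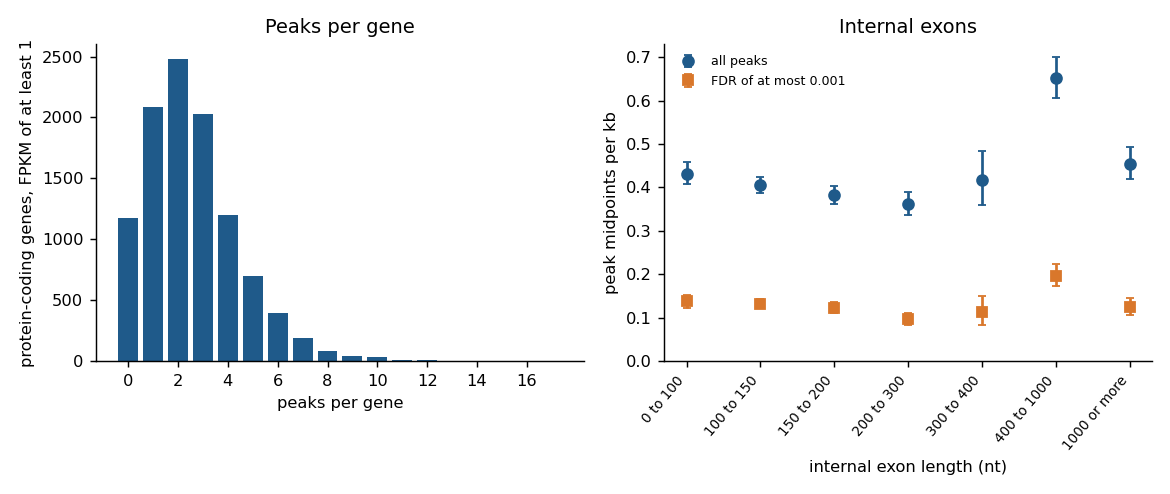
Left, number of protein-coding genes with FPKM of at least 1 (y axis) by number of peaks (x axis), with 2480 genes at the most frequent value of 2 peaks. Right, peak midpoints per kb of internal exon (y axis) by exon length in nt, for all peaks (circles) and at an FDR of at most 0.001 (squares), with 95% Poisson intervals; exons of 400 to 1000 nt stood highest at 0.652.

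The most abundant mRNAs differed in whether they had a peak. FTL, the ferritin light chain and the gene with the highest FPKM (10009.1), had 1 peak of 1.72-fold. ALDH1A1, an aldehyde dehydrogenase with FPKM 2156.6, had 2 of up to 3.13-fold, AKR1B10, an aldo-keto reductase at 1800.9, had 3 of up to 2.07-fold, and RPL41 had 1 of 3.7-fold. The 10 most abundant protein-coding genes without a peak under their ID included 5 that mitochondria encode. Of the other 5, GAPDH (FPKM 3087.7) held 2 peaks labelled AC006064.4, KRT81 held 2 labelled KRT86, TUBA1B held 2 labelled AC011603.2 and OST4 held 1 labelled AGBL5 in their exons, counted on either strand. AC006064.4 and AC011603.2 lie on the strand opposite to GAPDH and TUBA1B, and which gene of a pair such a peak comes from was not tested. BLVRB, biliverdin reductase B at FPKM 159.1, held none by either count.

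In all, 804 protein-coding genes (7.72%) with FPKM of at least 1 held no peak by label or by exon overlap, and 370 of the 1174 without a peak by label held one by overlap. Their median FPKM was 2.36, and 23 of the 804 had FPKM of at least 20. Those with the highest nuclear-encoded levels after BLVRB were ALYREF, an mRNA export factor (FPKM 94.0), PABPC1, the cytoplasmic poly(A)-binding protein (93.3), and the complex I subunits NDUFB7 (90.6) and NDUFA1 (72.3). Long mRNAs without any peak at FPKM of at least 5 included TAOK1, a kinase with a spliced length of 12643 nt, BMPR2, a BMP receptor (12068 nt), CDK6, a kinase of the cell cycle (11663 nt), LAMA3 (10651 nt), ITPR3 (9079 nt), ENTPD7 (8548 nt), TRIM33 (8369 nt), MED14 (7996 nt) and SP1 (7680 nt). ITPR3, the calcium channel of the endoplasmic reticulum, was at FPKM 12.7 and SP1, a transcription factor of GC boxes, at 10.9, levels at which 94.3% of coding genes had a peak. ZBED6, 11697 nt long, had none by label, but its exons held 12 peaks labelled ZC3H11A.

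Along the transcript, peaks were densest at the stop codon and near the 3′ end. The midpoints of 20957 peaks, 78.6% of those in protein-coding genes with FPKM of at least 1, fell on the canonical transcript. Coding sequence held 0.499 midpoints per kb, 3′ UTRs 0.537 and 5′ UTRs 0.425. Within 100 nt before the stop codon there were 1.25 per kb and within 100 nt after it 1.24, against 0.523 at 900 to 1000 nt before it and 0.489 at 1900 to 2000 nt after it. At an FDR of at most 0.001 the density before the stop codon was 0.691 per kb, against 0.155 at 900 to 1000 nt.

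The stop codon and the 3′ end were separate maxima. In the 5980 genes with a 3′ UTR of at least 1000 nt, the density was 1.05 and 1.11 per kb on either side of the stop codon, fell to 0.51 at 700 to 800 nt after it, stood at 0.605 at 900 to 1000 nt, and was 1.11 (1.03 to 1.20) at 200 to 300 nt from the 3′ end. It was 0.415 at 900 to 1000 nt from the 3′ end. At an FDR of at most 0.001 the density was 0.472 in the 100 nt after the stop codon and 0.388 at 200 to 300 nt from the 3′ end. The last 100 nt held 0.176 per kb, but a midpoint cannot lie nearer to an end than the part of the peak beside it. A smaller maximum stood near the 5′ end, with 0.831 per kb at 100 to 200 nt and 0.514 at 300 to 400 nt. Whether the limit on midpoints at transcript ends adds to the maxima near the 3′ and 5′ ends was not tested.

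**Figure D3:**
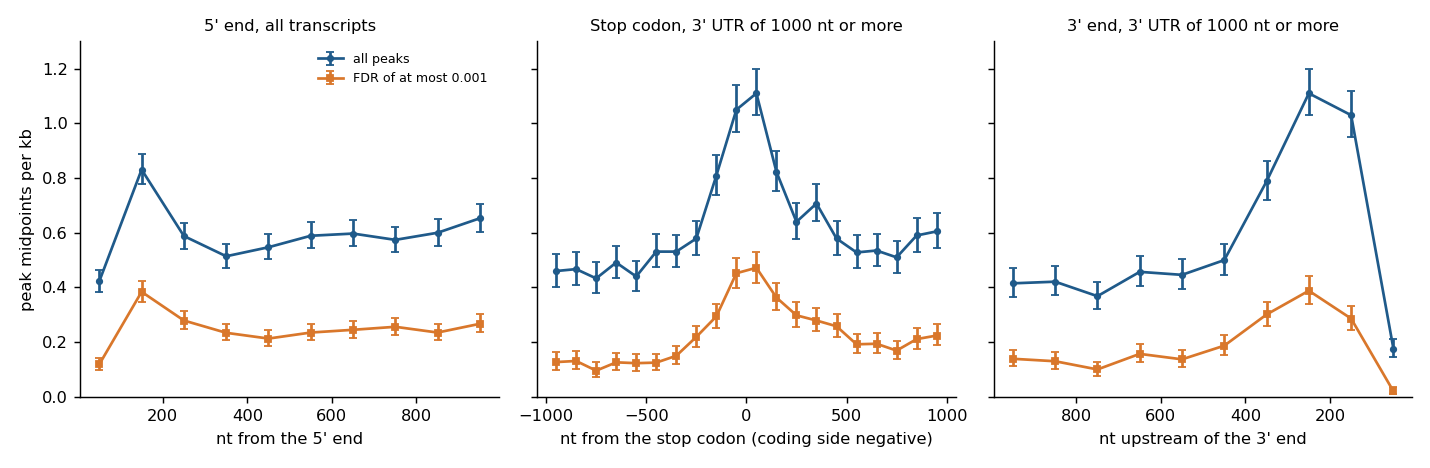
Peak midpoints per kb (y axis) in steps of 100 nt from the 5′ end of all transcripts (left), around the stop codon (middle) and upstream of the 3′ end (right) of transcripts with a 3′ UTR of at least 1000 nt; circles are all peaks, squares peaks at an FDR of at most 0.001, and bars are 95% Poisson intervals. Maxima stood at the stop codon (1.11 per kb) and at 200 to 300 nt from the 3′ end (1.11), with 0.51 at 700 to 800 nt after the stop codon.

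The last exon is where most stop codons lie, and it was partly set apart from the stop codon in 1294 genes. These had a long 3′ UTR and a last junction at least 300 nt from the stop codon. There the density was 1.11 per kb in the 100 nt before the stop codon. Around the last junction the density was 0.218 per kb in the 100 nt before the junction and 0.97 at 200 to 300 nt after it. Where the junction lay about 300 nt before the stop codon, this last window is the 100 nt before the stop codon. The density was already 0.495 per kb in the first 100 nt after the junction and 0.766 at 100 to 200 nt. How far the rise after the junction is separate from that at the stop codon was not tested. Last exons held 62.0% (61.3 to 62.7) of all midpoints on 54.8% of the sequence, internal exons 30.6% on 37.2%, and first exons 5.64% on 6.47%. Internal exons of 400 to 1000 nt had 0.652 midpoints per kb (95% Poisson interval 0.606 to 0.70), those of 200 to 300 nt 0.362 (0.336 to 0.389) and those of 1000 nt or more 0.455 (0.419 to 0.493). At an FDR of at most 0.001 the values were 0.196, 0.0961 and 0.124, in the same order.

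Peaks of high fold lay more often in first exons. Of midpoints at 1.5-fold to 2-fold 4.22% were in a first exon, of those at 5-fold to 10-fold 12.9%, and of the 438 at 10-fold or more 19.2%. The share in last exons was 46.0% under 1.5-fold and 69.6% at 10-fold or more.

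Most words of the m6A consensus, GGACT first, were more frequent near the midpoints than in sequence outside peaks. All 18 words of the consensus were counted on the strand of the transcript. They have 5 letters, which are any base but C, then a purine, then AC, then any base but G. GGACT had the largest ratio among them, with 1.23 per kb within 25 nt of the midpoint and 0.905 per kb in sequence outside peaks, a ratio of 1.36. The next ratio was 1.25, found for AGACT, for the word GAACT and also for GGACA. The lowest was that of TAACA at 0.804, and 14 of the 18 words had a ratio above 1, or 13 of 18 at an FDR of at most 0.001. Ratios above 1 were also frequent among all 1024 words of 5 letters. In that ranking TAACC, with a ratio of 1, had rank 469, and AGACA, with 0.996, had rank 504. Some of the 14 were barely above 1, such as AAACA and AGACC at 1.02. The ratio of GGACT was 1.48 at an FDR of at most 0.001. The reverse complement AGTCC, counted in the same way, had a ratio of 0.948. The excess of GGACT faded slowly with distance, to 1.09 per kb at 100 to 150 nt and 0.989 at 200 to 300 nt.

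**Figure D4:**
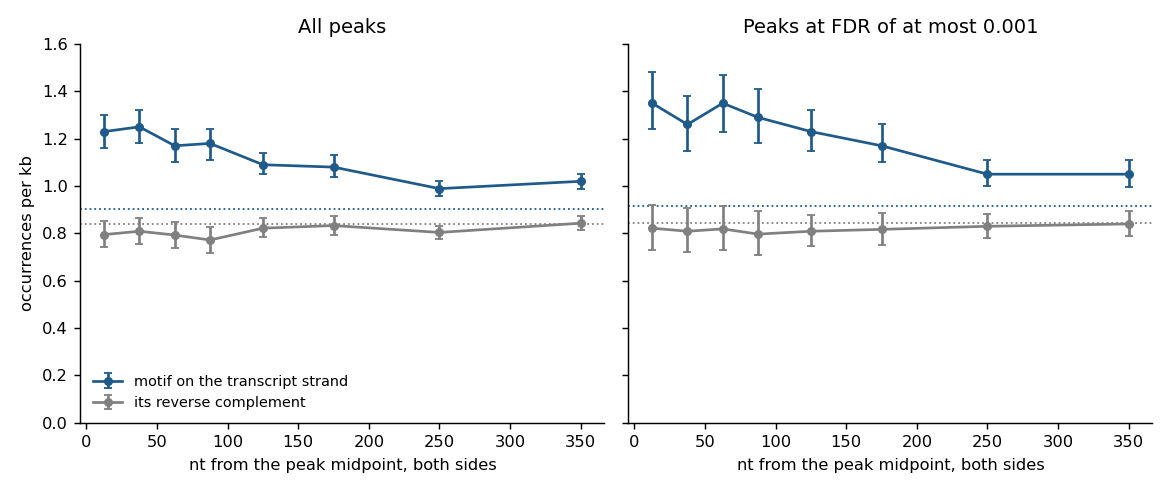
Occurrences per kb (y axis) of the most enriched consensus word, GGACT (upper curve), and of its reverse complement (lower curve) by distance in nt from the peak midpoint, for all peaks (left) and peaks at an FDR of at most 0.001 (right); bars are 95% Poisson intervals and dotted lines give the density outside peaks. The motif lay above its dotted line up to 400 nt, from 1.23 per kb at the midpoint to 1.02 at 300 to 400 nt, and the reverse complement stayed between 0.772 and 0.843 per kb for all peaks.

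The share of midpoints with the motif nearby differed little between fold classes. The search covered 50 nt on each side of the midpoint and not the rest of the peak. A GGACT lay within 50 nt of 11.3% (10.9 to 11.8) of midpoints, against 8.36% (8.25 to 8.47) of 258601 windows of 101 nt outside peaks. AGTCC lay in 7.47% and 7.82%. The share with GGACT was 10.9% at 1-fold to 1.5-fold, 11.5% at 2-fold to 3-fold, 10.7% at 5-fold to 10-fold and 11.6% (8.97 to 15.0) at 10-fold or more. Among all 1024 words of 5 letters, ranked by the same ratio, GGACT was 11th (rank 11), behind words such as GGGGG (1.51), GAGGG (1.51) and GAGGA (1.45). Among peaks at an FDR of at most 0.001 it had rank 9. Words rich in G thus rose around midpoints together with the motif, and their part in the motif's ratio was not tested.

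Gene functions differed less in having any peak than in having one at an FDR of at most 0.001, a share that also rose with expression. The share of a list is set beside that of all protein-coding genes (88.7%, or 51.6% at an FDR of at most 0.001) and beside the mean share of coding genes in the same bins of length and FPKM (bins), which include the genes of the list. Cytosolic ribosomal proteins, the protein part of the ribosome, had a peak in 82 of 84 genes (97.6%, 91.7 to 99.3), against 93.3% in their bins, and in 81 at an FDR of at most 0.001 (96.4%, bins 87.8%). Their peaks numbered 2.25 per kb of transcript, against 0.654 over all coding genes. RPL41 (FPKM 1365.9), RPS27 (687.0) and RPS6 (598.0) had folds of up to 3.7, 3.54 and 2.57.

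Other abundant complexes were compared with their bins in the same way. All 37 proteasome subunits with FPKM of at least 1 had a peak (bins 92.5%), 35 of them at an FDR of at most 0.001 (94.6%, bins 78.2%). PSMD3, of the regulatory particle, had 1 peak of 4.22-fold, and PSMA7, a subunit of the core particle, had 2 of up to 2.83-fold. Nuclear-encoded subunits of the respiratory chain had a peak in 90.8% of 76 genes (bins 90.2%) and a strict one in 86.8% (bins 76.7%). Mitochondrial ribosomal proteins had values of 93.6% (bins 91.0%) and 79.5% (bins 73.5%). SR proteins and hnRNPs, which package and splice pre-mRNA, had a peak in all 33 (bins 95.1%) and a strict one in 87.9% (bins 78.9%), and their median length was 3165 nt.

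**Figure D5:**
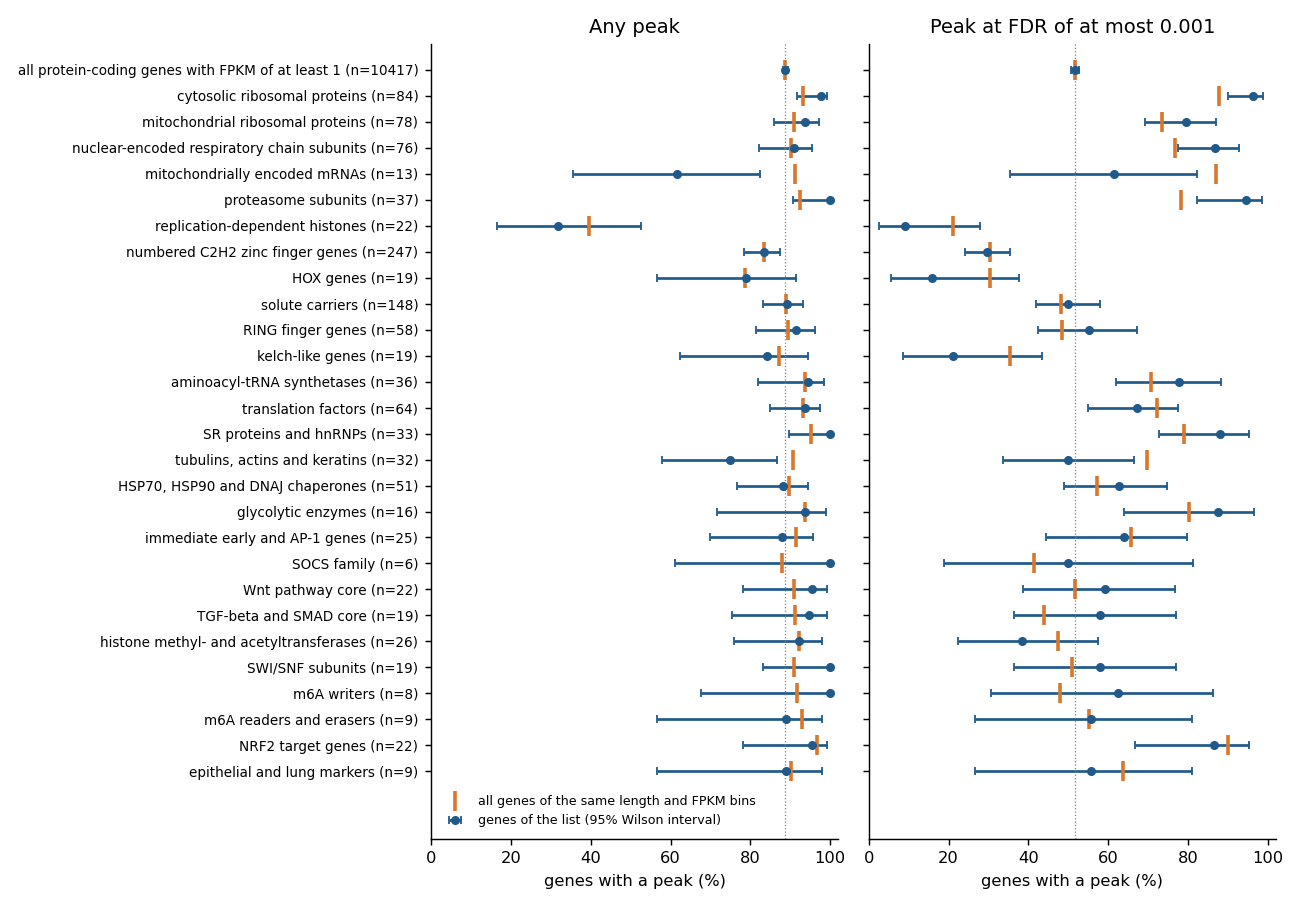
Share of genes with a peak (percent, x axis) in gene lists with at least 6 protein-coding genes at FPKM of at least 1, for any peak (left) and peaks at an FDR of at most 0.001 (right); circles with bars are the list and its 95% Wilson interval, ticks the mean of all coding genes in the same length and FPKM bins, and the dotted line all coding genes. Histones at 31.8% and mitochondrially encoded mRNAs at 61.5% were the lowest on the left, and zinc finger genes sat on their tick in both panels.

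Histone genes were the low end of the map. Of 22 replication-dependent histone genes with FPKM of at least 1, 7 had a peak (31.8%, 16.4 to 52.7), against 39.6% in their bins of short, low genes. The interval holds the bins value, but that value includes the histones themselves. Their median length was 483 nt, and only 79 coding genes with FPKM of at least 1 were under 500 nt. The comparison therefore cannot tell the list well from other genes of its bins. Histone mRNAs of this kind end in a stem-loop and not in a poly(A) tail, and poly(A) RNA was used here. Whether this bears on their share was not tested. HIST1H2BK, the highest at FPKM 50.5, had 1 peak of 1.53-fold and HIST1H1C, a linker histone at 18.6, 1 of 4.58-fold, while HIST2H2AC at 7.25 had none.

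Genes for numbered C2H2 zinc finger proteins, repressors that bind DNA with arrays of fingers, had a peak in 83.4% of 247 genes (78.3 to 87.5) and a strict one in 29.6%. The values in their bins were 83.3% and 30.4%, so the list was close to genes of the same length and level. Over genes with FPKM above 0 it stood 6.45 points above its bins (1.91 to 10.8), and with peaks of at least 2-fold 4.85 (-0.745 to 9.59). HOX genes, which pattern the body axis, had values of 78.9% and 15.8% of 19 genes (bins 78.6% and 30.5%).

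The 13 mRNAs that mitochondria encode are made away from the nuclear writer complex. Of these, 8 had a peak (61.5%, 35.5 to 82.3), against 91.3% in their bins, and whether their origin bears on this was not tested. MT-ND3, at FPKM 33.2, had a 7.82-fold peak, MT-CO2 2 peaks of up to 3.52-fold and MT-CO3 1 of 2.95-fold. MT-CO1 at 3165.0, MT-ND4L, MT-ND5 and MT-ND1 had none by either count. The other mitochondrial mRNAs with a peak reached 1.6-fold in MT-ND6, 1.67-fold in MT-ND4, 1.68-fold in MT-ATP6, 1.97-fold in MT-ND2 and 2.11-fold in MT-CYB.

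The count for tubulins, actins and keratins differed between label and exon overlap. By label 75.0% of 32 genes had a peak (57.9 to 86.7) against 90.7% in their bins, and by exon overlap 90.6% against 93.5%. KRT81, TUBA1B, TUBA4A and KRT10 were among those with a peak under another gene's label. KRT8 had 7 peaks of up to 3.82-fold, KRT18 6 of up to 2.64-fold, TUBB 4 of up to 2.54-fold and ACTB 1 of 1.35-fold.

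Genes of the m6A machinery had peaks about as often as other genes of their length and level. All 8 writers had a peak (bins 91.8%), 5 of them at an FDR of at most 0.001 (62.5%, bins 48.0%), and 8 of 9 readers and erasers had one (88.9%, bins 93.0%). VIRMA, the scaffold, had 7 peaks of up to 9.92-fold, METTL3, the catalytic subunit, 5 of up to 3.56-fold, METTL14, its partner, 3 of up to 6.1-fold and WTAP 1 of 1.82-fold. SOD2 shares the WTAP locus, and by exon overlap WTAP held 6 peaks, some labelled SOD2. Of the readers and erasers, YTHDF1 had 3 peaks, YTHDF2 4 of up to 2.11-fold, YTHDF3 4, and the eraser ALKBH5 5 of up to 5.34-fold. The top folds of VIRMA, METTL14 and ALKBH5 equal repeated values described above. IGF2BP2, an RNA-binding protein counted among the readers, was the 1 of 9 with none. FTO, an eraser at an FPKM of 0.948 and so outside these counts, had 5 peaks of up to 2.83-fold.

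Signalling and stress genes were near their bins. All 6 SOCS genes, inhibitors of cytokine signalling, had a peak (bins 87.9%), with up to 6 peaks in SOCS5 and 9.92-fold in SOCS7. The share was 94.7% of 19 TGF-beta and SMAD genes (bins 91.3%), with 14.9-fold in SMAD6 and none in BMPR2, and 95.5% of 22 Wnt pathway genes (bins 90.9%). Of 22 NRF2 target genes, the antioxidant genes that NRF2 switches on, 95.5% had a peak (bins 96.7%) and all did by exon overlap. HMOX1, heme oxygenase, had 2 of up to 8.05-fold, and SRXN1 held 4 labelled AL121758.1. Immediate early and AP-1 genes had a peak in 22 of 25 (bins 91.5%), with 12.6-fold in DUSP4, 5.17-fold in IER3 and 2.87-fold in MYC. ZFP36, which destabilises AU-rich mRNAs, held none by either count, and JUNB held 2 labelled HOOK2.

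Terms of the deposited annotation gave the same picture over 943 GO and 205 KEGG terms with at least 30 coding genes at FPKM of at least 1, which share many genes. The median share with a peak was 90.8% for GO and 90.6% for KEGG terms. The lowest GO terms were nucleosome at 56.4% of 39 genes (bins 63.0%) and regulation of megakaryocyte differentiation at 68.6% of 35 (bins 77.4%). Replication-dependent histones made up 22 of the 39 and 7 of the 35 genes, and 21 of the 45 in the lowest KEGG term, systemic lupus erythematosus, at 60.0% (bins 65.2%). Among other low terms, endoplasmic reticulum unfolded protein response stood at 76.2% of 42 (61.5 to 86.5, bins 91.8%). By exon overlap it had 83.3% (bins 94.0%). Sphingolipid biosynthetic process stood at 76.3% of 38 (60.8 to 87.0, bins 89.7%). Ion channel activity had 75.8% of 33 (59.0 to 87.2, bins 84.9%), an interval that holds the bins value. All were picked for their low share. At the other end 18 GO terms and the KEGG term Proteasome had a peak in every gene, among them RNA processing (93 genes) and Wnt signaling pathway, planar cell polarity pathway (82 genes, 37 of them proteasome subunits).

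At an FDR of at most 0.001 the range was wider, from 19.4% to 95.8% among GO terms. The lowest were cation transport at 19.4% of 31 genes (9.19 to 36.3, bins 38.2%) and determination of left/right symmetry at 25.7% of 35 (14.2 to 42.1, bins 42.0%). Calcium channel activity and presynapse stood at 26.7% of 30 each (14.2 to 44.4, bins 42.1% and 41.1%). DNA synthesis involved in DNA repair and ion channel activity followed at 27.3% of 33 each (15.1 to 44.2, bins 51.7% and 34.5%). Of these, only the intervals of cation transport and DNA synthesis involved in DNA repair left out the bins value. These terms were picked as the lowest of 943, so their intervals do not show a difference from the bins. The number of all terms whose interval left out the bins value is not given here. The highest were regulation of cellular amino acid metabolic process at 95.8% of 48 (bins 78.0%), 37 of them proteasome subunits, and SRP-dependent cotranslational protein targeting to membrane at 95.6% of 90 (bins 87.7%), 79 of them cytosolic ribosomal proteins. Among KEGG terms the highest were Proteasome at 92.9% of 42 (bins 79.2%) and Ribosome at 89.1% of 129 (bins 83.8%). Ferroptosis, the iron-dependent form of cell death, stood at 81.8% of 33 (65.6 to 91.4, bins 70.9%), an interval that holds the bins value. Spliceosome stood at 80.5% of 128 (72.8 to 86.4, bins 72.5%). Neuroactive ligand-receptor interaction was the lowest at 34.1% of 41 (21.6 to 49.5, bins 43.5%).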

How the data were processed

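RNA of A549 cells was sequenced as an IP and an input library. Reads were trimmed with fastp and aligned to GRCh38 by HISAT2, and StringTie gave the FPKM per gene in the input that the authors deposited. Peaks came from exomePeak, run on a single IP and a single input, with ChIPseeker annotation. For every peak the authors deposited a p-value, scores that are log10 values of p and of FDR, and a fold enrichment, which is a linear ratio. Tool versions and the annotation release are not given in the sources used here. The counts behind FPKM and peaks are unknown, so no precision from depth is given.

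The members, gene lists and named-gene rules were chosen with earlier results of these data known. Named were the protein-coding genes with most peaks, the highest FPKM with and without a peak, the longest without a peak at FPKM of at least 5, the peaks of highest fold, 10 lncRNAs with and without, 10 GO and KEGG terms at each end, and list members, in sets of 10 where a number was needed. Genes with no peak by exon overlap, the stop codon peaks and the lncRNA sequences were chosen after their values were seen. Repeated rows were dropped, and peaks were joined to genes by gene ID. Gene classes, exons, spliced lengths and stop codons came from canonical transcripts of GENCODE release 44, which held 27939 of the 28283 genes of the FPKM table. Sequences are GRCh38. Exon overlap required 99% of the exonic bases of a peak, on either strand; the library preparation marks strand, but whether peak calling used it is not given in the sources used here. The midpoint is the middle of a peak's exonic sequence. Bins for gene lists crossed 8 classes of length with 7 of FPKM. No test was made, since there is 1 library of each kind: shares have 95% Wilson and densities 95% Poisson intervals. Scripts used Python 3.11.15 with SciPy and pysam and were tested on simulated data. Alternatives were peak filters, FPKM filters, genes sharing exons, another length and covered bases. The knockdown libraries were not compared here, and of their peak list only the number was used. Some genes that the naming rules pick are not reported here.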

Additional observations from a re-analysis of the deposited data

How the results depend on the processing

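No paired analysis was possible because there was 1 IP and 1 input library, and for the same reason no library could be left out. The 8 values compared were the share of genes with a peak (82.5%), protein-coding minus lncRNA (44.2 points), FPKM 100 to 500 minus 1 to 2 (22.0), 6000 nt or more minus under 1000 nt (7.71), genes with 3 or more peaks (50.6%), ribosomal proteins minus their bins (4.29), last exons minus their share of sequence (7.17) and GGACT minus windows outside peaks (2.96). Of 56 alternatives 19 stayed within the interval of the value and 35 moved, and the length difference reversed in 2.

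With an FDR of at most 0.05 the share of genes was 66.5%, the expression difference 57.9, the length difference -9.64, genes with 3 or more peaks 27.9% and the last exon difference 8.9. With an FDR of at most 0.001 they were 47.1%, 78.2, -30.1, 15.5% and 11.5, the class difference was 35.9, ribosomal proteins stood 8.6 above their bins and GGACT 3.47 above windows outside peaks. With a fold of at least 2 the values were 68.1% of genes, 34.2 for class, 1.4 for expression (-5.17 to 7.47), 21.3% with 3 or more peaks, 16.2 for ribosomal proteins and 15.3 for last exons. With FPKM of at least 5 they were 91.5%, 38.2 for class, 56.4% with 3 or more peaks and 8.25 for last exons, and with FPKM above 0 they were 46.6%, 51.1 for class, 13.9 for length and 46.8% with 3 or more. Without genes sharing exons 83.8% of genes had a peak and 49.5% had 3 or more. The union of exons gave a length difference of 26.5, and covered bases a last exon difference of 11.1. Other alternatives were chosen after seeing the data. Peaks given to the genes whose exons hold them gave 85.4% of genes, 28.2 for class and 49.5% with 3 or more peaks. Joined peaks gave 47.4%, peaks sharing no base 44.6%, and peaks in 1 exonic block a last exon difference of 24.0. The causes were not tested. Of 35 alternatives for the gene lists 9 moved. A reversal was counted only where the interval of the value left out 0, which gave 0 for the lists, and 7 of the 35 had the opposite sign of a value whose interval held 0.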

Other observations

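The lncRNA genes with the highest FPKM without a peak were FP236383.2 (327.3), FP236383.3 (315.0), FP671120.3 (284.8) and FP671120.4 (126.6), which are all 923 nt long and lie on chromosome 21; whether they share reads was not tested. MIF-AS1, at an FPKM of 27.2, also held no peak by either count. There were 18 peaks on the mitochondrial chromosome. For the 1083 peaks with no base in exons of the labelled gene and 1 other gene that held them, the holding gene had the higher FPKM in 60.8%, with medians of 4.6 and 1.98.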
